A study of Mus musculus with 12 samples.

Results

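The tricarboxylic acid (TCA) cycle and the entry of pyruvate into it were followed through 9 genes chosen by name: Pdha1, Cs, Idh2, Idh3a, Ogdh, Dlst, Suclg1, Fh1 and Mdh2. All 9 were among the 24411 genes of the deposited tables, and all 9 were counted deeply enough to be among the 14743 genes tested. The RNA came from 12 libraries of mouse blastocysts, the embryo stage with a fluid-filled cavity, each library made from poly(A) RNA of a pool of 10 embryos. Oocytes of superovulated wild-type ICR mice, an outbred stock, were fertilized in vitro, and the embryos were cultured in KSOM medium until 96 h after insemination (hpi). The groups were HFD_siNampt, ND_siNampt, HFD_siNT, ND_siNT, HFD_C and ND_C, with 2 libraries each. HFD and ND are diet labels that the sources used here do not spell out, and the title of the series speaks of obese and normal weight mice. siNampt is an siRNA against Nampt and siNT a non-targeting siRNA, both electroporated into one-cell embryos, while the sources do not give how the control C was handled at that step. Replicates 1 and 2 carry the labels batch 1 and batch 2. Nothing says that the pools came from separate matings, so p-values measure the spread between pools.

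In the mitochondrial matrix, the pyruvate dehydrogenase complex turns pyruvate into acetyl-CoA, and citrate synthase joins this to oxaloacetate to make citrate. The cycle then oxidizes citrate stepwise back to oxaloacetate and passes its electrons, mostly as NADH, to the respiratory chain. NAD, which the salvage enzyme Nampt helps to supply, is the electron acceptor of the pyruvate, isocitrate, 2-oxoglutarate and malate dehydrogenases. Early mouse embryos are known to depend on pyruvate before they make wider use of glucose. The series asks about Nampt in embryos of normal weight and obese mice.

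Totals were 42473129 to 50503064 expected counts per library, and replicates of a group correlated at 0.964 to 0.972 across genes on the log2 scale of CPM, counts scaled to the library's size. The trophectoderm (7 of 7), inner cell mass (5 of 5) and primitive endoderm markers (4 of 4) were each at 1 CPM or more in every library. The 6 cumulus cell markers summed to 0.0218 to 1.85 CPM, and the 4 sperm markers to 0.397 to 0.976 CPM, of which Tnp1 was at 0. Nampt itself averaged 46.5 ± 7.11 CPM in siNampt, 62.8 ± 10.5 CPM in siNT and 54.2 ± 11.9 CPM in C (SD, n = 4), and its difference between siNampt and siNT did not pass the test over all genes (edgeR log2 fold change -0.43, SE 0.17, adjusted p = 0.396). Nor did its difference between siNampt and C (edgeR log2 fold change -0.21, SE 0.17, adjusted p = 0.999).

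Upstream sequence is shown for 3 of the genes: Ogdh and Dlst, whose levels followed each other most closely across libraries, and Mdh2, the most abundant. Each is RefSeq sequence of build GRCm38.p6, from 250 bases before to 50 bases after an annotated start, read 5′ to 3′ on the gene's strand, which is the + strand for all 3. The Ogdh window lies at chr11:6291347-6291646 and is the most upstream of 6 windows of that gene, the Dlst window at chr12:85110583-85110882 and the Mdh2 window at chr5:135778399-135778698. The GENCODE M21 span of Mdh2, given below, starts at 135778480, so most of the Mdh2 window lies inside that span. Capitals mark the GC box GGGCGG and the ETS motif CCGGAAG on either strand.
Ogdh: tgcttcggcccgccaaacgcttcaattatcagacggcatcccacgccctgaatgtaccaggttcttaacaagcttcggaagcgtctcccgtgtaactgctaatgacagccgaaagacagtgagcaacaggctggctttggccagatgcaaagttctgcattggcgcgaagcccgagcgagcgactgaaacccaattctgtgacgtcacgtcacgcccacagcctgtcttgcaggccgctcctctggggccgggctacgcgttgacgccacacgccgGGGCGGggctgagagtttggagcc
Dlst: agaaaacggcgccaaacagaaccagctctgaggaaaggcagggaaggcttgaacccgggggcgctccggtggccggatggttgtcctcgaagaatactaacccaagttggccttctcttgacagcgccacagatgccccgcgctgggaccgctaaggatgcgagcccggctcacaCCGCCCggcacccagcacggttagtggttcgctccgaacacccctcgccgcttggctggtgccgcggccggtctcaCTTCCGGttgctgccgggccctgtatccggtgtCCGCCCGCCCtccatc
Mdh2: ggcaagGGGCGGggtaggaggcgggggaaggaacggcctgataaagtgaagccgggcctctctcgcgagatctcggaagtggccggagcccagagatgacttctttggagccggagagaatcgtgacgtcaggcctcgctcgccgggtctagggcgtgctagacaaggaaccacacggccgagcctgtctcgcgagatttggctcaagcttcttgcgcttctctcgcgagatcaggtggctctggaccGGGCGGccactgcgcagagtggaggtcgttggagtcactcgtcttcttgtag
The windows of Ogdh, Dlst and Mdh2 held 1, 3 and 2 GC boxes, of which 2 in Dlst share 2 bases, and Dlst also held the ETS motif, just past its start. Windows were in the table for 8 of the 9 genes, without Idh3a. A GC box was in 6 of these 8 windows, against 35.9% of 27025 promoters, and the ETS motif in 1 of 8, against 9.14%. The NRF1 consensus motif, searched with any base in its middle, was in 0 of 8, against 4.82%, the CCAAT box CCAAT in 4 of 8, against 38%, and the ERR motif TCAAGGTCA in 0 of 8, against 0.407%. The 27025 promoters were taken whether or not the gene was tested here. They were not matched for GC content, which ran from 51% (Suclg1) to 68.3% (Idh2) in the 8 windows. A match of letters is a description and not a binding site.

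The genes lie on 9 chromosomes (GENCODE M21, GRCm38). Each was measured as a gene-level value, and the exons counted may differ from the GENCODE M21 annotation. Pdha1 spans chrX:160122209-160138413 on the - strand, where it is the one X-linked gene of the 9. Of the enzymes that form and oxidize citrate, Cs spans chr10:128337734-128362479 (+ strand), Idh2 chr7:80094846-80115392 (- strand) and Idh3a chr9:54586334-54604661 (+ strand). Ogdh spans chr11:6291633-6356642 and Dlst chr12:85110833-85134845, both on the + strand. Of the later steps, Suclg1 spans chr6:73248382-73276911 (+ strand), Fh1 chr1:175600374-175625635 (- strand) and Mdh2 chr5:135778480-135790398 (+ strand).

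The 9 genes covered a wide range of levels. On the TPM scale, in which the authors' values are transcript shares corrected for length, Mdh2, the mitochondrial malate dehydrogenase, was highest at 653 ± 71.5 TPM (SD over the 12 libraries), and Suclg1, the alpha subunit shared by both succinyl-CoA ligases, followed at 578 ± 48.1 TPM. Idh3a, the catalytic subunit of the NAD-dependent isocitrate dehydrogenase, stood at 339 ± 29.7 TPM. Fumarase (Fh1) was at 111 ± 13.0 TPM and Pdha1, the E1 alpha subunit of pyruvate dehydrogenase, at 102 ± 8.69 TPM. Idh2, the NADP-dependent mitochondrial isocitrate dehydrogenase, had 78.7 ± 14.8 TPM and citrate synthase (Cs) 63.9 ± 8.75 TPM. The 2 subunits of the 2-oxoglutarate dehydrogenase complex were lowest, Dlst, its E2 component, at 19.4 ± 3.75 TPM and Ogdh, its E1 component, at 9.21 ± 1.42 TPM.

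This order was stable in most places. Mdh2 exceeded Suclg1 in 11 of 12 libraries with overlapping ranges, and Fh1 exceeded Pdha1 in 9 of 12, so neither pair of neighbours was separated by more than its spread. Suclg1 lay above Idh3a, Idh3a above Fh1, Cs above Dlst and Dlst above Ogdh in 12 of 12 libraries, with ranges that did not overlap. Pdha1 exceeded Idh2, and Idh2 exceeded Cs, within every library, but the ranges over libraries overlapped. The median ratio of Mdh2 to Ogdh within a library was 70.3, from 55.0 to 93.2. The FPKM values (fragments per kilobase, scaled to depth) placed all 9 genes in the same order. Within a library TPM is FPKM times a common factor, so that order was fixed and is no further support.

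Subunits of the same enzyme differed in transcript level, in the same direction in all 12 libraries for most pairs. Dlst was 1.89 to 2.41 times Ogdh in TPM, a narrower range than either gene showed on its own (13.8 to 24.8 TPM for Dlst and 7.03 to 11.2 TPM for Ogdh). Pdhb, the E1 beta subunit that pairs with Pdha1, was at 384 ± 43.2 TPM and exceeded Pdha1 2.94 to 4.24 times, whereas Dlat, the E2 component of pyruvate dehydrogenase, was at 17.7 ± 1.43 TPM. Dld, the E3 component that both complexes share, stood at 128 ± 16.4 TPM. Of the other isocitrate dehydrogenase subunits Idh3b had 199.5 ± 22.5 TPM and Idh3g 379 ± 62.9 TPM, and Idh3a exceeded Idh3b in 12 of 12 libraries but was below Idh3g in 9. Suclg1 exceeded its GTP-forming partner Suclg2 5.91 to 7.44 times and its ATP-forming partner Sucla2 1.76 to 2.33 times. Cytosolic counterparts were also present, Mdh1 at 307 ± 30.8 TPM, less than its mitochondrial form Mdh2 in 12 of 12 libraries, and Idh1 at 252 ± 35.4 TPM, more than its mitochondrial form Idh2 in 12 of 12.

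**Figure D1:**
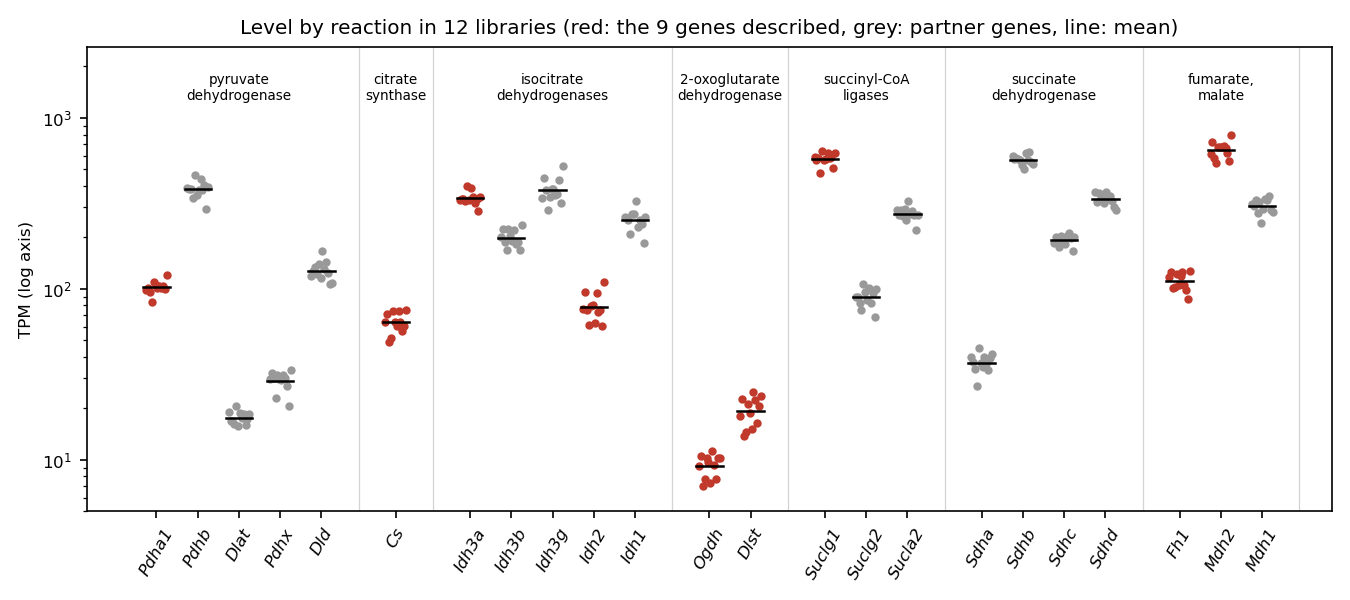
TPM (log axis) of the 9 genes (red) and partner genes (grey) by reaction; each point is 1 of 12 libraries and each line the mean. Mdh2 and Suclg1 are highest, at 653 and 578 TPM on average, while Ogdh and Dlst, at 9.21 and 19.4 TPM on average, lie below every other subunit shown except Dlat (17.7 TPM).

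Genes that regulate or bypass pyruvate entry were much lower. The pyruvate dehydrogenase kinases, which switch the complex off by phosphorylating Pdha1, averaged 0.338 TPM for Pdk1, 2.64 TPM for Pdk2, 4.48 TPM for Pdk3 and 0.102 TPM for Pdk4. Of the phosphatases that reverse this, Pdp1 averaged 0.379 TPM and Pdp2 4.67 TPM. Pyruvate carboxylase (Pcx), which makes oxaloacetate directly from pyruvate, averaged 0.182 TPM. The mitochondrial pyruvate carrier was well expressed, with Mpc1 at 255 ± 36.9 TPM and Mpc2 at 236 ± 13.8 TPM.

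Near-identical or related copies took few reads. Csl, a copy of Cs, had 0 or 1 counts per library, Pdha2, the testis form of Pdha1, 0 to 8, and Ogdhl, the relative of Ogdh, 7 to 82. The 9 genes themselves had between 1573 counts (Dlst in ND_siNT replicate 1) and 41512 counts (Idh3a in ND_siNampt replicate 1) per library.

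Across all 12 libraries and all conditions the 9 genes varied little. Their coefficients of variation in CPM ran from 6.25% for Pdha1 and 6.87% for Mdh2 to 14.1% for Dlst and 14.7% for Idh2, and the ratio of the highest to the lowest library ran from 1.23 for Pdha1 to 1.64 for Idh2. The median coefficient over the 8483 tested genes averaging 5 CPM or more was 15.6%, but highly expressed genes generally vary less. One library was low for several of them: HFD_siNampt replicate 1 had the lowest CPM of the 12 for Idh2, Idh3a, Suclg1, Fh1 and Mdh2. Its sum over the 9 genes was 2575 CPM, against 2824 to 3215 CPM in the other 11, and it had 17924 genes with a count, against 16463 to 17618 in the others. Its primitive endoderm markers summed to 280.7 CPM, against 181 to 251 CPM in the others, and the part of these measures in its low values was not tested. Without it the knockdown estimates over both diets, described below, were 0.18 in place of 0.05 for Idh2, 0.10 in place of 0.01 for Mdh2, 0.05 in place of -0.04 for Fh1, -0.04 in place of -0.11 for Idh3a and -0.0155 in place of -0.08 for Suclg1, on the log2 scale.

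**Figure D2:**
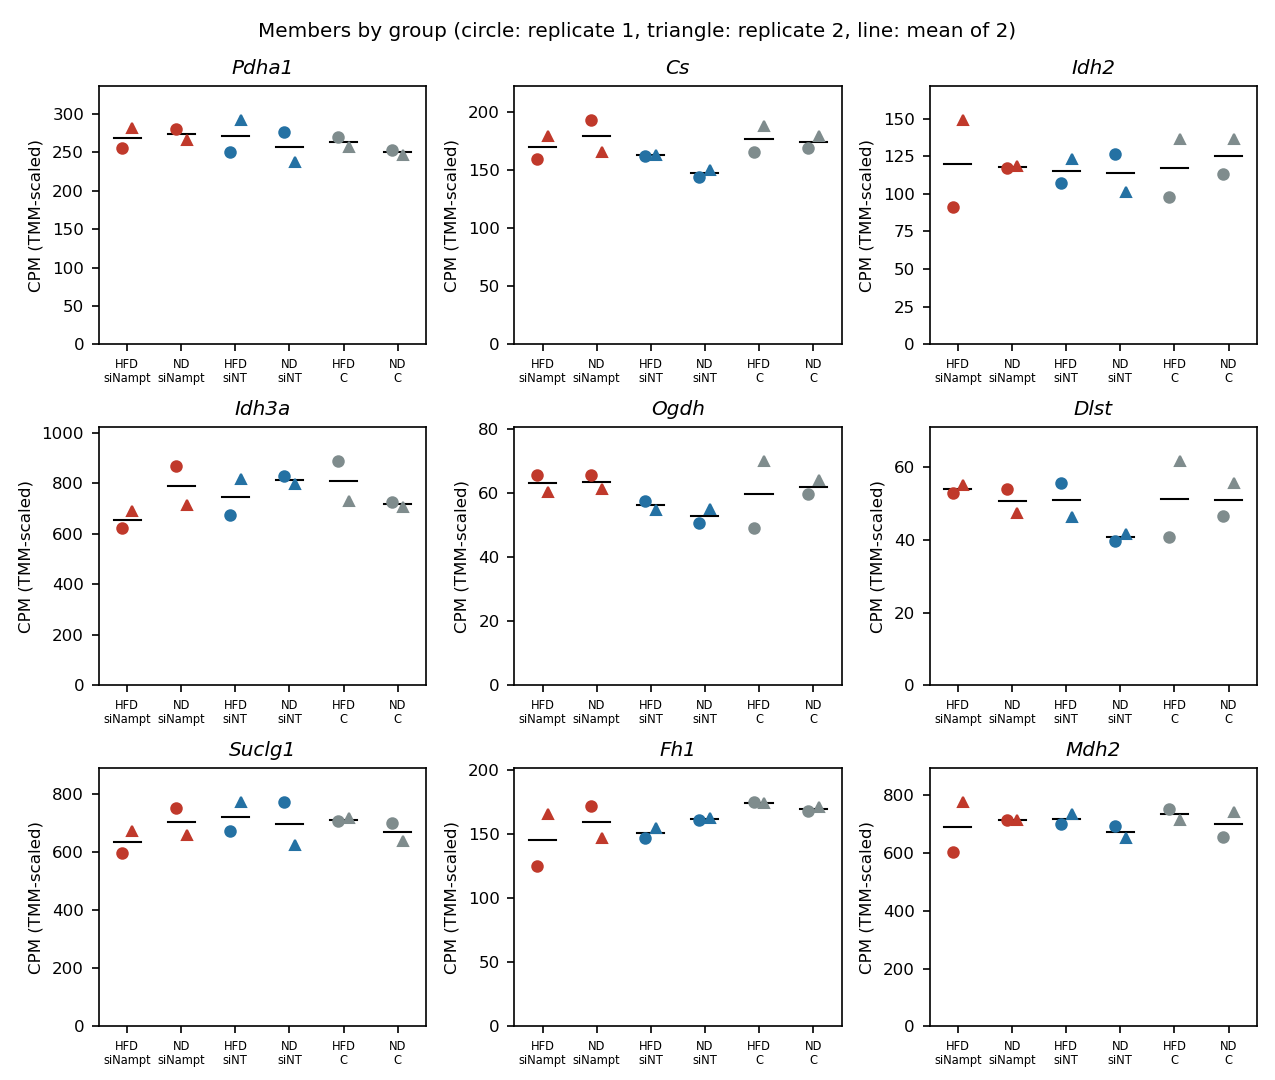
TMM-scaled CPM of each of the 9 genes (one panel each, axis from 0) in the 6 groups, siNampt in red, siNT in blue and C in grey; circles are replicate 1, triangles replicate 2 and lines the mean of 2. The points of most groups overlap, and Ogdh is higher in the 4 siNampt libraries (60.4 to 65.8 CPM) than in the 4 siNT libraries (50.7 to 57.6 CPM).

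Setting the 4 siNampt libraries of both diets against the 4 siNT libraries answers whether transcripts of the cycle differ when Nampt is targeted. None of the 9 genes passed the threshold of 0.05 for the adjusted p in edgeR's quasi-likelihood test (0 of 9, against 0% of the 14743 genes tested). In this and the 6 comparisons below, 0 of 9 passed with DESeq2 and with limma on the TPM values as well. At an unadjusted p under 0.05 edgeR counted 0 of 9, against 11.2% of all genes, and limma on TPM 2 of 9, against 13.6% of all genes. The log2 fold changes ran from -0.11 to 0.21 with a median of 0.04, beside a median of 0.03 over all genes, 3 of 9 were below 0, against 47.2% of all genes, and the median of their sizes without sign was 0.08, beside 0.23. In bulk samples fewer cells of a type and less RNA per cell cannot be told apart.

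Ogdh had the largest estimate. It stood at 65.8 and 60.4 CPM in HFD_siNampt and 65.6 and 61.5 CPM in ND_siNampt (replicates 1 and 2), against 57.6 and 54.8 CPM in HFD_siNT and 50.7 and 55.2 CPM in ND_siNT. All 4 siNampt libraries were thus above all 4 siNT libraries, and Ogdh was the only one of the 9 genes whose groups did not overlap; 6.08% of all genes tested were so separated, 3.38% with siNampt higher. The log2 fold change was 0.21 (SE 0.12, 95% interval -0.04 to 0.47, adjusted p = 0.512). In C, Ogdh had 49.2 and 70.2 CPM in HFD_C and 59.7 and 64.1 CPM in ND_C, a range that spans the values of both siRNA groups.

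Dlst and Cs had the next largest estimates. Dlst was at 52.7 and 55.1 CPM in HFD_siNampt and 54.1 and 47.3 CPM in the ND_siNampt libraries, against 55.6 and 46.4 CPM in HFD_siNT and 39.7 and 41.6 CPM in ND_siNT. The groups overlapped through HFD_siNT replicate 1, and the log2 fold change was 0.20 (SE 0.14, interval -0.11 to 0.50, adjusted p = 0.620). Cs was at 159.7 and 179.9 CPM in HFD_siNampt and 194 and 166 CPM in the ND_siNampt libraries, against 162 and 163 CPM in HFD_siNT and 145 and 151 CPM in ND_siNT. Only HFD_siNampt replicate 1 lay within the siNT range, and the log2 fold change was 0.17 (SE 0.10, interval -0.04 to 0.38, adjusted p = 0.521).

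For the other 6 genes the estimates lay closer to 0. Idh2 had 91.0 and 149 CPM in HFD_siNampt and 117 and 119 CPM in the ND_siNampt libraries, against 107 and 123 CPM in HFD_siNT and 127 and 101 CPM in ND_siNT, so the 2 HFD_siNampt libraries were the lowest and the highest of the 8. Mdh2 followed the same pattern, with 603 and 778 CPM in HFD_siNampt and 713 and 714 CPM in the ND_siNampt libraries, against 699.5 and 736 CPM in HFD_siNT and 695 and 653 CPM in ND_siNT. Pdha1 was the steadiest, at 256 to 282 CPM in siNampt and 238 to 293 CPM in siNT. Idh3a averaged 724 ± 103 CPM in siNampt and 780.1 ± 70.2 CPM in siNT (SD, n = 4 each; log2 -0.11, interval -0.36 to 0.14), and Suclg1 averaged 671 ± 63.0 CPM in siNampt and 709.8 ± 75.0 CPM in siNT (log2 -0.08, interval -0.30 to 0.14). Fh1 was at -0.04 (interval -0.26 to 0.19), Mdh2 at 0.01 (-0.19 to 0.22), Pdha1 at 0.04 (-0.16 to 0.24) and Idh2 at 0.05 (-0.27 to 0.38). Over the 9 genes the intervals of this comparison reached at most 0.50 up and 0.36 down on the log2 scale in this fit, and other fits have other limits. A p above the threshold does not show that the groups were alike.

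The directions of these small differences depended on the scale. With limma on log2(TPM + 1) all 9 genes were above 0 in siNampt against siNT, with a median of 0.18, among them Idh3a at 0.03, Suclg1 at 0.07 and Fh1 at 0.10, which were below 0 in the count fit. Between these scales genes of at least 5 CPM were shifted by a median of 0.14 log2 units for siNampt minus siNT and by -0.11 for siNT minus C. Relative to that shift the order of the 9 genes was similar, with Cs at 0.31, Ogdh at 0.32 and Dlst at 0.33 highest on the TPM scale. By batch, Ogdh was at 0.28 in batch 1 and 0.16 in batch 2, Cs at 0.20 and 0.15, and Dlst at 0.17 and 0.22, while Idh2 was at -0.17 in batch 1 and 0.26 in batch 2.

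Other measures varied among the same libraries, with ranges that overlapped between siNampt and siNT. The trophectoderm markers summed to 4721 to 6894 CPM in siNampt and 4213 to 5021 CPM in siNT, with all 7 markers present in every library. Most of this sum was keratin, with Krt18 at 2728 to 4453 CPM in siNampt and 2468 to 3162 CPM in siNT, and Krt8 at 1451 to 1901 CPM in siNampt and 1341 to 1492 CPM in siNT. The transcription factors Elf5 (4.53 to 36.9 CPM in siNampt and 8.36 to 39.8 CPM in siNT) and Eomes (66.4 to 143 CPM in siNampt and 63.3 to 134 CPM in siNT) covered much the same range in both. Cdx2 was at 14.1 to 16.4 CPM in siNampt and 9.68 to 14.8 CPM in siNT. Gata3 was at 280 to 319 CPM in siNampt and 256 to 290 CPM in siNT, and Tfap2c at 40.8 to 59.7 CPM and 33.3 to 46.5 CPM. The siNampt ranges of Cdx2, Gata3 and Tfap2c reached higher and overlapped those of siNT. The Y-linked genes, which follow the share of male embryos in a pool, summed to 63.2 to 334 CPM in siNampt and 186 to 402 CPM in siNT, and Xist, the RNA of the inactive X chromosome, ran from 32.4 to 169 CPM in siNampt and from 72.4 to 103 CPM in siNT. Their part in the values above was not tested beyond the fit with a Y-linked covariate, in which Ogdh was at 0.24, Dlst at 0.20 and Cs at 0.18. In that fit Idh2 at -0.17 and Mdh2 at -0.08 changed sign. The median of the 9 genes there was -0.04, beside 0.02 over all genes, and 5 of 9 were below 0. Pdha1 is itself X-linked. Transcript length and GC content differed among the members too, from 1282 bases for Mdh2 to 6621 bases for Ogdh, and from 43.6% GC for Idh3a to 55.6% for Idh2. With a correction for GC and length, Ogdh was at 0.12, Cs at 0.11 and Dlst at 0.20. Idh2 at -0.13, Mdh2 at -0.08, Fh1 at 0.09 and Suclg1 at 0.0036 changed sign with that correction.

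**Figure D3:**
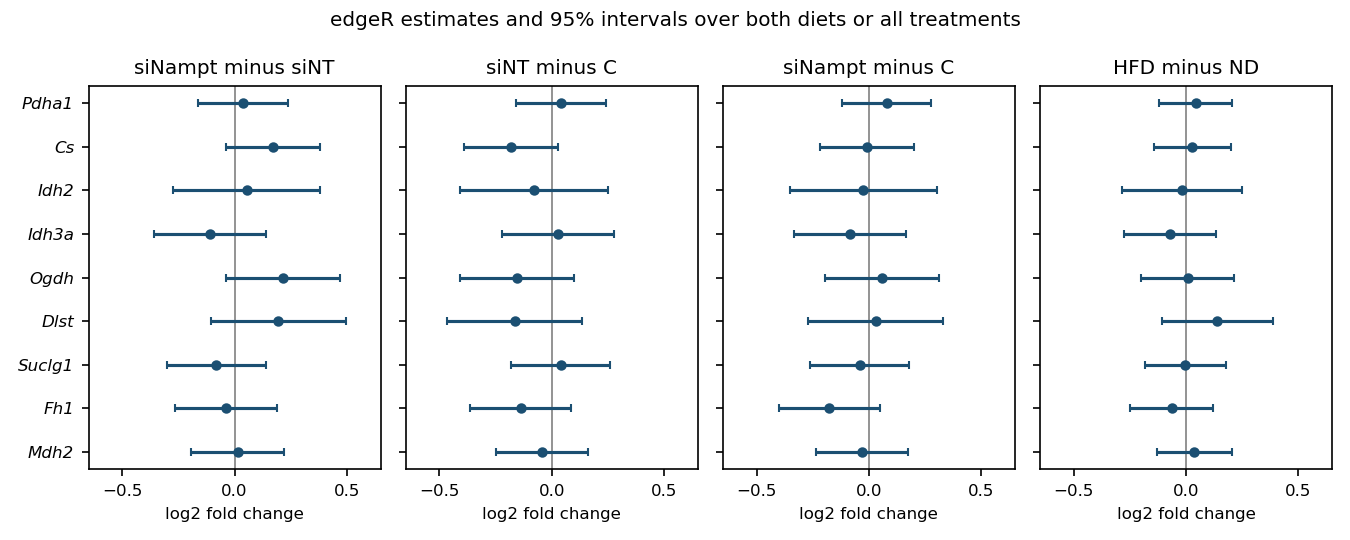
edgeR log2 fold changes (points) and 95% intervals (bars) of the 9 genes in the 4 comparisons over both diets or all treatments; a positive value means higher in the first-named group. Every interval includes 0, and for siNampt minus siNT the points lie between -0.11 (Idh3a) and 0.21 (Ogdh).

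Within each diet the knockdown was compared with 2 libraries in each group. Nampt itself was at 53.9 and 37.7 CPM in ND_siNampt, 74.6 and 49.4 CPM in ND_siNT and 54.2 and 38.2 CPM in ND_C (replicates 1 and 2). Replicate by replicate, ND_siNampt was thus below ND_siNT but close to ND_C. For the other diet Nampt was at 50.3 and 44.0 CPM in HFD_siNampt, 61.3 and 66.0 CPM in HFD_siNT and 67.0 and 57.3 CPM in HFD_C. In HFD embryos 0 of 9 genes passed (0% of all genes), and 0 of 9 had an unadjusted p under 0.05 in edgeR, against 4.27% of all. Of the estimates 4 were above and 5 below 0, where 46.3% of all genes were below 0. On the TPM scale 7 were above 0, where the median over all genes was 0.07. Idh3a was at -0.19 (SE 0.15) and Suclg1 at -0.18 (SE 0.15), the lowest, and Ogdh at 0.17 (SE 0.18), the highest. In ND embryos 0 of 9 passed (0% of all genes; 0 of 9 at an unadjusted p under 0.05, against 8.34%; limma on TPM 1 of 9, against 9.6%), and Dlst at 0.32 (SE 0.21), Cs at 0.28 (SE 0.14) and Ogdh at 0.26 (SE 0.18) were highest, with Idh3a at -0.04 (SE 0.15) lowest, and at 0.13 on the TPM scale. In ND, the 2 siNampt libraries lay above both siNT libraries for Cs, Dlst, Ogdh and Mdh2 and below them for no member, and with 2 against 2 libraries 41.3% of all genes did not overlap, 21.5% with siNampt higher. In HFD this held for Ogdh alone, against 33.5% of all genes, 17.9% with siNampt higher.

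Whether the response to siNampt differed between the diets was tested directly as the HFD response minus the ND response. None of the 9 genes passed (0 of 9, against 0% of all genes; 0 of 9 at an unadjusted p under 0.05, against 3.06%). The estimates ran from -0.24 for Dlst (SE 0.29) to 0.01 for Idh2 (SE 0.33), with Cs at -0.22 (SE 0.20) and Suclg1 at -0.19 (SE 0.21). For 8 of the 9 genes the estimate was below 0, beside 48.7% of all genes. On the TPM scale all 9 were below 0, with a median of -0.20, beside -0.02 over all genes. With 1 library left out the count in edgeR ran from 6 to 9, and it was 6 without ND_siNampt replicate 1 and without HFD_siNampt replicate 1. The 2 HFD_siNampt libraries differed from each other for several members, most for Idh2, at 91.0 CPM in replicate 1 and 149 CPM in replicate 2, and the Idh2 estimate moved to 0.33 without replicate 1 and to -0.42 without replicate 2.

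The non-targeting siRNA was compared with C over both diets. The handling of C at electroporation is not given, so the siRNA and the procedure cannot be told apart here. Again 0 of 9 genes passed (0% of all genes; 0 of 9 at an unadjusted p under 0.05, against 4.4%), and limma on TPM counted 2 of 9 at an unadjusted p under 0.05, against 5.43% of all genes. The lowest estimates were those of Cs at -0.18 (SE 0.10, interval -0.39 to 0.03), Dlst at -0.17 (SE 0.14) and Ogdh at -0.16 (SE 0.12), and the highest were Pdha1 and Suclg1, both at 0.04. The median was -0.08, beside -0.01 over all genes, and 6 of the 9 estimates were below 0, against 52.2% of all genes. On the TPM scale all 9 were below 0, with a median of -0.19, beside -0.07 over all genes. The same 4 siNT libraries are the reference of the knockdown comparison, so these values and those of the knockdown are not independent.

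Cs and Fh1 were lower in all 4 siNT libraries than in all 4 C libraries, 2 of 9 genes, where 1.76% of all genes were so separated with siNT lower and 3.27% in either direction. Cs had 162 and 163 CPM in HFD_siNT and 145 and 151 CPM in ND_siNT, against 166 and 189 CPM in HFD_C and 169 and 179.6 CPM in ND_C. Fh1 had 147 and 154 CPM in HFD_siNT and 161 and 162 CPM in ND_siNT, against 175 and 174 CPM in HFD_C and 167 and 171 CPM in ND_C. Neither gene passed the test over all genes (adjusted p = 0.984 for both).

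Against C, the siNampt embryos differed even less. Of the 9 genes 0 passed (0% of all genes; 0 of 9 at an unadjusted p under 0.05, against 3.8%), and 0 of 9 had groups that did not overlap, against 2.31% of all genes. Fh1 was lowest at -0.18 (SE 0.11, interval -0.40 to 0.05), with 125 and 166 CPM in HFD_siNampt and 172 and 147 CPM in the ND_siNampt libraries, against the C values given above. Idh3a was at -0.08 (SE 0.12) and Pdha1 at 0.08 (SE 0.09), the highest. Cs, Ogdh and Dlst, the 3 genes highest against siNT, were at -0.01, 0.06 and 0.03 against C.

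Diet over all treatments, HFD against ND with 6 libraries each and so more than in the other comparisons, left the 9 genes closest to 0. None passed (0 of 9, against 0% of all genes), and 0 of 9 were under an unadjusted p of 0.05, against 3.22%. The groups overlapped for all 9, as for all but 0.095% of the genes tested. The median log2 fold change was 0.01, and the median of the sizes without sign 0.04, beside 0.12 over all genes. The 2 batches pointed opposite ways. In batch 1 alone 8 of the 9 estimates were below 0, with a median of -0.06, and in batch 2 alone 0 of 9, with a median of 0.11. The median over all genes was 0.01 in each batch. Dlst was highest at 0.14 (SE 0.12), with 52.0 ± 7.45 CPM in HFD and 47.5 ± 6.38 CPM in ND (SD, n = 6 each). Idh3a at -0.07 (SE 0.10) and Fh1 at -0.06 (SE 0.09) were lowest. All 9 intervals lay between -0.29 and 0.39.

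Among themselves the 9 genes formed no single pattern across libraries. Over the 36 pairs of genes the Pearson correlation of log2 CPM had a median of 0.37, from -0.58 to 0.86, and 25 pairs were above 0. The points are 12 libraries that share their group, depth and scaling, so these values describe the libraries only. Ogdh and Dlst, the E1 and E2 of one complex, had the highest value (0.86), and Cs was next to both, at 0.75 with Dlst and 0.69 with Ogdh. Idh3a ran opposite to them, at -0.58 with Dlst and -0.56 with Ogdh, and was nearest to Suclg1 (0.68). Pdha1 was also nearest to Suclg1 (0.71), and Mdh2 to Idh2 (0.67).

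**Figure D4:**
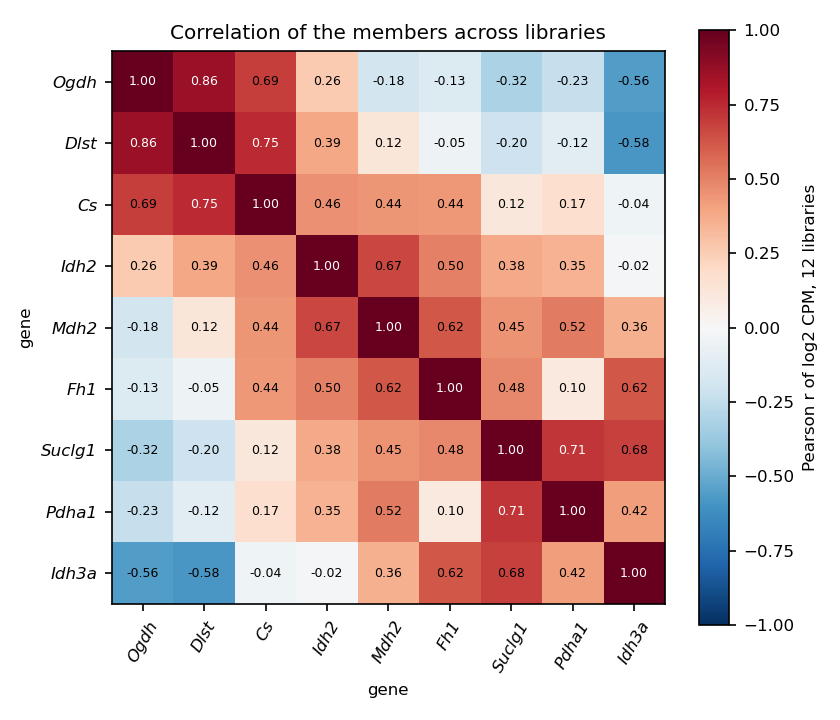
Pearson correlation of log2 CPM over the 12 libraries for each pair of the 9 genes (red positive, blue negative). Ogdh, Dlst and Cs form one block with values of 0.69 to 0.86, and Idh3a is negative to Ogdh and Dlst (-0.56 and -0.58).

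The genes whose level followed the mean standardized level of the 9 genes most closely, out of 8474 genes averaging 5 CPM or more, were Nup85 (r = 0.98), a nucleoporin, Eif3l (0.95), a translation initiation factor subunit, Rbm4 (0.92), an RNA-binding protein, Atp5b (0.92), the beta subunit of ATP synthase, and Lsg1 (0.91), a GTPase of ribosome assembly. On the TPM scale Nup85 stayed highest (0.98), and it was the single gene shared between the 5 highest of each scale. Nup85 had 89.5 and 138 CPM in HFD_siNampt and 139 and 110.2 CPM in the ND_siNampt libraries, against 108 and 117 CPM in HFD_siNT and 117 and 93.8 CPM in ND_siNT. Its lowest library was HFD_siNampt replicate 1, the one that was also lowest for 5 of the 9 members. Nup85 was picked for its correlation with the members over these same libraries, so this is no separate observation.

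The rest of the pathway was read from a list of 46 further symbols, of which 44 were in the tables and 43 were tested. It holds the other subunits, the regulators and carriers of pyruvate, the lipoylation enzymes, and linked cytosolic enzymes and carriers. In the 7 comparisons 0 of 43 genes passed the adjusted threshold with edgeR, and with limma on TPM 0 genes of the whole table did. In the knockdown over both diets 4 were higher and 7 lower at an unadjusted p under 0.05, against 6.1% of all genes higher and 5.05% lower, and the median was 0.03, the same as over all genes. The smallest p belonged to Slc25a12, the mitochondrial aspartate-glutamate carrier, with 10.5 and 20.7 CPM in HFD_siNampt and 17.5 and 19.3 CPM in the ND_siNampt libraries, against 10.6 and 9.98 CPM in HFD_siNT and 8.20 and 9.59 CPM in ND_siNT (log2 0.81, SE 0.22, adjusted p = 0.396). Of the 4 siNampt libraries 3 were above the siNT range and HFD_siNampt replicate 1 was within it. Mdh1, the cytosolic malate dehydrogenase, followed at -0.33 (SE 0.11) and Sdhd, a membrane anchor of succinate dehydrogenase, at -0.30 (SE 0.10), both with an adjusted p of 0.396.

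For the knockdown in ND the genes of small p in the further list included Slc25a12 (1.05, SE 0.30, adjusted p = 0.536) and the dicarboxylate carrier Slc25a10 (0.65, SE 0.23). For the knockdown in HFD the smallest p was that of Dld at 222 and 204 CPM in siNampt against 288 and 284 CPM in siNT (-0.43, SE 0.16, adjusted p = 0.923), followed by Mdh1 (-0.38, SE 0.17) and Sdhc (-0.29, SE 0.13). For siNT against C the genes of small p included Pdk2 (-0.41, SE 0.21) and Mpc2 (0.18, SE 0.11), and for siNampt against C the first were the fatty acid synthesis enzyme Mcat (0.40, SE 0.18), Slc25a12 (0.45, SE 0.21) and Sdhd (-0.20, SE 0.10). For diet they were Mpc1 (-0.20, SE 0.12), the lactate dehydrogenase subunit Ldhb (0.51, SE 0.30) and the cytosolic aconitase Aco1 (0.19, SE 0.12), and for the difference of the responses between diets they included Ldhb (1.60, SE 0.58) and the second aspartate-glutamate carrier Slc25a13 (0.66, SE 0.29).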

How the data were processed

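RNA of 12 pools of 10 blastocysts was sequenced from SMART-Seq libraries, per the labels. STAR 2.7.10, RSEM 1.2.28 and mm10 are named in the submitters' processing notes, and strand and further settings are not given in the sources used here. Per the file headers the deposited values are RSEM's expected counts, TPM, FPKM and gene lengths in bases. Expected counts (6.43% not whole) were rounded for the tests, TPM served for levels, and FPKM for an alternative. Genes passing edgeR's filterByExpr (minimum count 10, 6 groups) were scaled with TMM and tested in edgeR 4.0.16 (R 4.3.3, quasi-likelihood, two-sided, Benjamini-Hochberg over all 14743 genes, threshold 0.05), with all 12 libraries in each fit. Comparisons over both diets, and of diet, come from a model with diet and treatment as separate terms. Those within a diet, and their difference, come from a model of 6 group means. Standard errors were taken from the log2 fold change and F, and 95% intervals use the fit's degrees of freedom. The method was tested on simulated data. The changes planted there were larger than any estimate of the members, so the detection of smaller changes was not tested.

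The label batch carries the same number as the replicate, so equal numbers pair libraries. The tests above have no term for it, and a replicate block was an alternative. The replicate 2 minus replicate 1 differences correlated between groups at -0.06 to 0.22 (median 0.0917, 15 pairs of groups). Alternatives were DESeq2 1.42.0, RLE factors, other filters, the replicate number, limma 3.58.1 on log2(TPM + 1), left-out libraries, single batches, only the libraries compared, a Y-linked covariate, and GC and length offsets (GENCODE M21, 96.1% of genes matched). The rule for named genes took all 9 members, any gene of the further pathway list past the threshold or else its 3 of smallest p in a comparison, the 5 genes most like the members' mean, and Nampt. For 1 gene of the pathway list the values are not reported here. HFD_siNampt replicate 1, the upstream windows and ratios were chosen after their values were seen. Members and lists were chosen with earlier results of these data known.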

Additional observations from a re-analysis of the deposited data

Results flagged for a closer look

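Idh3a in HFD_C replicate 1 stood at 889.9 CPM, apart from the other 3 C libraries, which lay between 708 and 731 CPM. On the log2 scale the gap took up 0.857 of the range of the 4 libraries. Of 45 sets of 4 or 6 libraries examined for the 9 genes, 1 was set apart in this way, where chance gives about 1 in 20. Without this library Idh3a in siNampt against C was at 0.01 in place of -0.08.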

How the results depend on the processing

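None of the 9 genes passed the adjusted threshold in any comparison under any alternative (smallest adjusted p = 0.290). Of 1386 values of the 9 genes under the alternatives, 1255 kept their sign and 131 changed it, and the largest estimate that changed sign was 0.17 in size. The replicate block left 0 genes and 0 members past the threshold in all 7 comparisons and changed no call. Only the libraries compared could not be taken alone for diet, which uses all of them, and single batches gave no fit within a diet.

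The count of genes past the threshold was 0 in each comparison, and it depended on the filter. With no filter on low counts it was 119 for the knockdown over both diets, 76 for siNT against C, 71 for siNampt against C, 99 for diet, 108 and 68 for the knockdown in ND and in HFD, and 40 for the difference between diets. The cause was not tested. DESeq2 called 1 gene in the knockdown over both diets and 2 each for siNT against C, siNampt against C, diet and the knockdown in HFD. Batch 1 alone gave 1 gene for the knockdown over both diets, 8 for siNT against C, 27 for siNampt against C and 44 for diet, and batch 2 alone gave 2 for the first, 1 for siNampt against C and 74 for diet. Leaving out 1 library gave 0 to 1 for diet (1 without ND_siNampt replicate 1), 0 to 1 for the knockdown in HFD and 0 to 2 for the difference between diets (both without HFD_siNampt replicate 2).

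For the knockdown over both diets Mdh2 was at -0.0016 with DESeq2 and with RLE factors. On the TPM scale Idh3a was at 0.0306, Suclg1 at 0.0699 and Fh1 at 0.10. In batch 1 Idh2 was at -0.1701 and Mdh2 at -0.0837, and with the Y-linked covariate at -0.1653 and -0.0763. With the GC and length correction Idh2 was at -0.1291, Suclg1 at 0.0036, Fh1 at 0.0894 and Mdh2 at -0.0814. Leaving out 1 library, Pdha1 ran from -0.0068 to 0.0904, Idh2 from -0.1038 to 0.1791, Mdh2 from -0.0434 to 0.1027 and Fh1 from -0.1062 to 0.0548, and the ends of the last 3 ranges were without HFD_siNampt replicate 2 and replicate 1. For siNT against C, Pdha1 was at -0.0753 on the TPM scale and from -0.0147 to 0.083 with 1 library left out, and Dlst at 0.1162 in batch 1. For siNampt against C, Idh3a was at 0.0219 with the GC and length correction and from -0.1805 to 0.0149 with 1 library left out. For diet, Idh3a was at 0.0187 and Fh1 at 0.0501 in batch 2. For the knockdown in ND, Idh3a was at 0.1286 on the TPM scale, at 0.0065 with the GC and length correction and from -0.1834 to 0.1009 with 1 library left out. For the difference between diets, Idh2 was at -0.0086 with no filter, -0.0933 on the TPM scale, -0.0492 with the Y-linked covariate and from -0.4229 to 0.3262 with 1 library left out. Estimates that kept their sign also moved by over 1.5 times with 1 library left out. For siNT against C, Ogdh ran from -0.2617 to -0.0683 and Dlst from -0.2981 to -0.0762. For the knockdown in HFD, Idh3a ran from -0.3216 to -0.0505 and Suclg1 from -0.2953 to -0.085. For the difference between diets, Suclg1 ran from -0.3636 to -0.0626, Dlst from -0.3812 to -0.1153 and Cs from -0.3473 to -0.1134. With 2 libraries per group, intervals within a diet are wide, and counts of at least 1573 per library make counting error small for the 9 genes.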
